A study of Equus caballus with 22 samples.

Results

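The chemokines CCL3, CCL5 and CCL11 and the cytokines TNF and IL10 were followed through the endometrium, the inner lining of the uterus, of warmblood mares in early pregnancy. The 5 genes were chosen by name, as signals of inflammation and of its restraint. They are 5 of the 675 genes that could be named on the array, and 14 probes carried the horse RefSeq transcript of one of them. Biopsies came from 4 groups: pregnant mares at day 12 (6 samples), the same mares at the matching stage without pregnancy (6 control samples), pregnant mares at day 8 (5 samples) and their controls at day 8 (5 samples). All biopsies were whole pieces of tissue, and those of pregnant mares were taken once the embryo had been recovered. The RNA was labelled with 1 dye, Cy3, and hybridised to Agilent horse arrays, 1 array per sample.

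Chemokines are small secreted proteins that draw white blood cells along a gradient by binding receptors on their surface. CCL3 and CCL5 attract mainly monocytes and T lymphocytes, and CCL11, also called eotaxin, attracts eosinophils. TNF is made largely by macrophages and switches on inflammatory genes, many chemokines among them, while IL10 is the classical cytokine that dampens macrophage activation and TNF production. In the mare, the uterine lining mounts a brief inflammatory response to semen and bacteria. The early embryo later meets this lining while it still moves freely through the uterus.

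Each level below is the log2 spot intensity of a probe minus the log2 of the 75th percentile of its array, so that 0 marks the 75th percentile and a step of 1 is a doubling. Levels of different probes share no common scale, so only a probe's own values are set against each other. The sums of marker levels given below are the exception, and each follows mainly its brightest probe. The 75th percentile of the arrays lay between 577 and 1863 intensity units, between 74.2% and 92.9% of spots were well above background, and no spot was saturated. Both arrays of every mare lay on 1 slide, whereas the days shared no slide, no scan day and no version of the scanner software. Day and array batch therefore cannot be told apart in any comparison of day 12 with day 8. Markers of the tissue were present on all 22 arrays: ESRP1 of epithelium and decorin (DCN) and lumican (LUM) of stroma, which are 1 of 8 and 2 of 7 listed markers that could be measured. Mare 1 of day 8 stood apart from the other day 8 mares for TNF, CCL11 and CCL3, and results that turned on her arrays are given with and without them.

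All 5 genes were detected, on a probe that was well above background on all 22 arrays. The single probes of CCL3 (A_69_P001366, transcript NM_001114941) and TNF (A_69_P000411, NM_001081819), both probes of CCL5 (NM_001081863) and all 5 probes of IL10 (NM_001082490) passed on every array. CCL11 (NM_001081871) had 5 probes that did not act alike. Its brightest probe, A_69_P000770, passed on 22 arrays and A_69_P000769 on 19, missing pregnant mare 6 and control mares 4 and 6 of day 12. The other CCL11 probes, A_69_P000768, A_69_P000766 and A_69_P000767, passed on 8, 7 and 2 arrays. Probe A_69_P000767 was not well above background on any array of 3 groups, and both arrays that passed were day 12 controls. It fell short of the 5 arrays required for testing and has no fold change, so 13 of the 14 probes were tested.

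**Figure D1:**
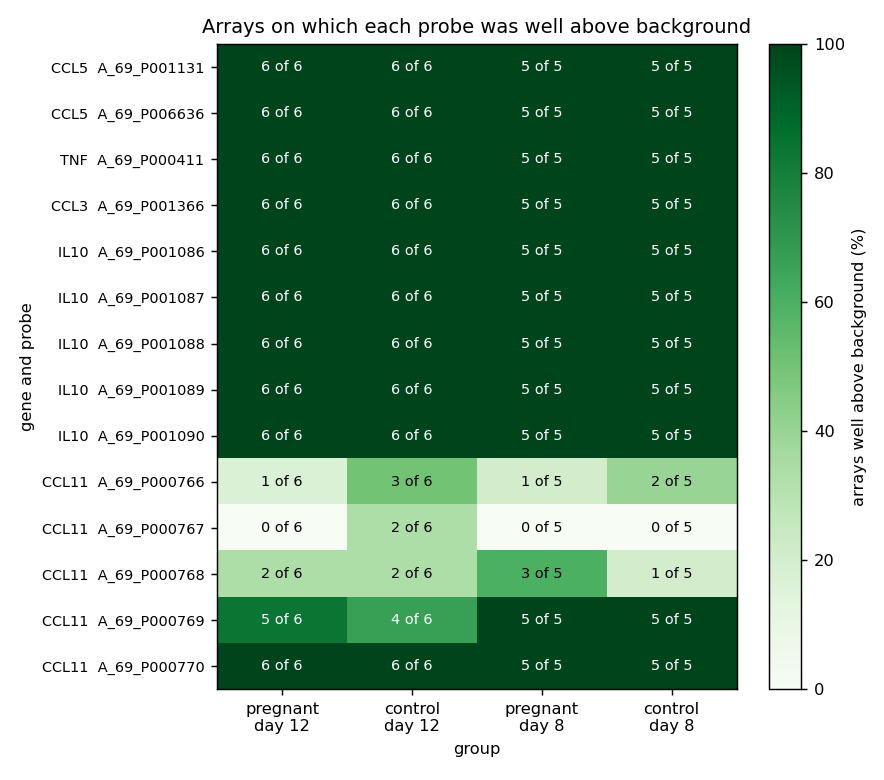
Number of arrays of each group (columns) on which each of the 14 probes (rows, by gene) was well above background, with the colour giving the same number as a percentage. Only CCL11 probes missed arrays, and A_69_P000767 passed on 2 of 6 day 12 control arrays and on none of the other groups.

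CCL3, a chemokine that recruits monocytes, had group means that lay within one another's spread. Its level ran from −4.19 to −3.44 with a median of −3.82 in pregnant mares at day 12, and from −4.40 to −3.36 with a median of −3.88 in controls at day 12. At day 8 it was −2.87, −4.45, −4.03, −4.02 and −3.99 in pregnant mares 1, 2, 4, 5 and 6, against −3.24, −4.63, −3.92, −3.87 and −3.87 in the same mares as controls. The groups overlapped throughout, and mare 1 had the highest value of both day 8 groups. From high to low the group means were −3.83 (pregnant, day 12), −3.87 (pregnant, day 8), −3.90 (control, day 12) and −3.90 (control, day 8), and no neighbours in this order differed beyond the larger of their SDs.

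CCL5, a chemokine for T lymphocytes and monocytes that cytotoxic T and NK cells also secrete, lay somewhat higher on day 12 arrays. Its brightest probe, A_69_P001131, ran from −0.70 to 0.41 with a median of −0.18 in pregnant mares at day 12 and from −0.72 to 0.26 with a median of −0.40 in controls at day 12. At day 8 it was −0.50, −0.52, −1.17, −0.35 and −1.27 in pregnant mares and −0.97, −0.82, −0.41, −1.18 and −1.19 in controls, mares in the order 1, 2, 4, 5 and 6. The group means fell in the order pregnant day 12 (−0.16 ± 0.40), control day 12 (−0.33 ± 0.36), pregnant day 8 (−0.76 ± 0.43) and control day 8 (−0.91 ± 0.32; SD, n = 6, 6, 5 and 5). The largest step, between control day 12 and pregnant day 8, was about as large as the larger SD, and the groups overlapped.

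CCL11, the eosinophil attractant, was lower on day 12 arrays than on day 8 arrays. Its brightest probe ran from −5.36 to −4.50 with a median of −5.15 in pregnant mares at day 12 and from −5.31 to −4.38 with a median of −4.90 in controls at day 12. At day 8 it was −2.60, −4.04, −3.85, −3.72 and −4.12 in pregnant mares and −1.80, −3.76, −4.08, −4.05 and −4.03 in controls. Every day 12 array lay below every day 8 array on this scale, and mare 1 stood well above the other mares in both day 8 groups. The unscaled intensities overlapped, at 18.1 to 69.0 on day 12 arrays and 52.1 to 165 on day 8 arrays. The means were −5.03 ± 0.37 and −4.88 ± 0.40 in pregnant and control mares at day 12 and −3.67 ± 0.61 and −3.55 ± 0.98 at day 8 (SD, n = 6, 6, 5 and 5). In the order of the means, the step between pregnant mares at day 8 and control mares at day 12 exceeded the larger SD and the others did not.

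TNF, the inflammatory cytokine, was tightly grouped at day 12 and split at day 8. It ran from −1.26 to −0.86 with a median of −0.93 in pregnant mares at day 12 and from −1.44 to −0.51 with a median of −0.81 in controls at day 12. At day 8 it was 0.72, −2.20, −2.18, −2.02 and −2.18 in pregnant mares, against 1.17, −1.61, −1.97, −1.70 and −1.66 in controls. The remaining day 8 arrays lay below all day 12 arrays, and both arrays of mare 1 lay above all of them. Because of that mare the SD was 1.28 and 1.31 in pregnant and control mares at day 8 and 0.16 and 0.38 at day 12, and no neighbours in the order of the 4 means differed beyond the larger SD.

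IL10, the cytokine that restrains inflammation, had the tidiest pattern of the 5 genes. Its brightest probe, A_69_P001086, ran from −4.83 to −4.52 with a median of −4.70 in pregnant mares at day 12 and from −5.01 to −4.53 with a median of −4.76 in controls at day 12. At day 8 it was −3.64, −4.39, −3.85, −3.92 and −3.76 in pregnant mares and −3.38, −4.04, −4.11, −3.40 and −3.79 in controls. Every day 12 array lay below every day 8 array on this scale, and mare 1 of day 8 was not apart from the others here by the gap used for the other genes. The unscaled intensities overlapped, at 21.9 to 69.5 on day 12 arrays and 50.9 to 120.7 on day 8 arrays. The means were −4.69 ± 0.11 and −4.78 ± 0.17 in pregnant and control mares at day 12, and −3.91 ± 0.29 and −3.74 ± 0.34 at day 8 (SD, n = 6, 6, 5 and 5). In the order of the means the only step beyond the larger SD was that between pregnant mares at day 8 and pregnant mares at day 12.

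**Figure D2:**
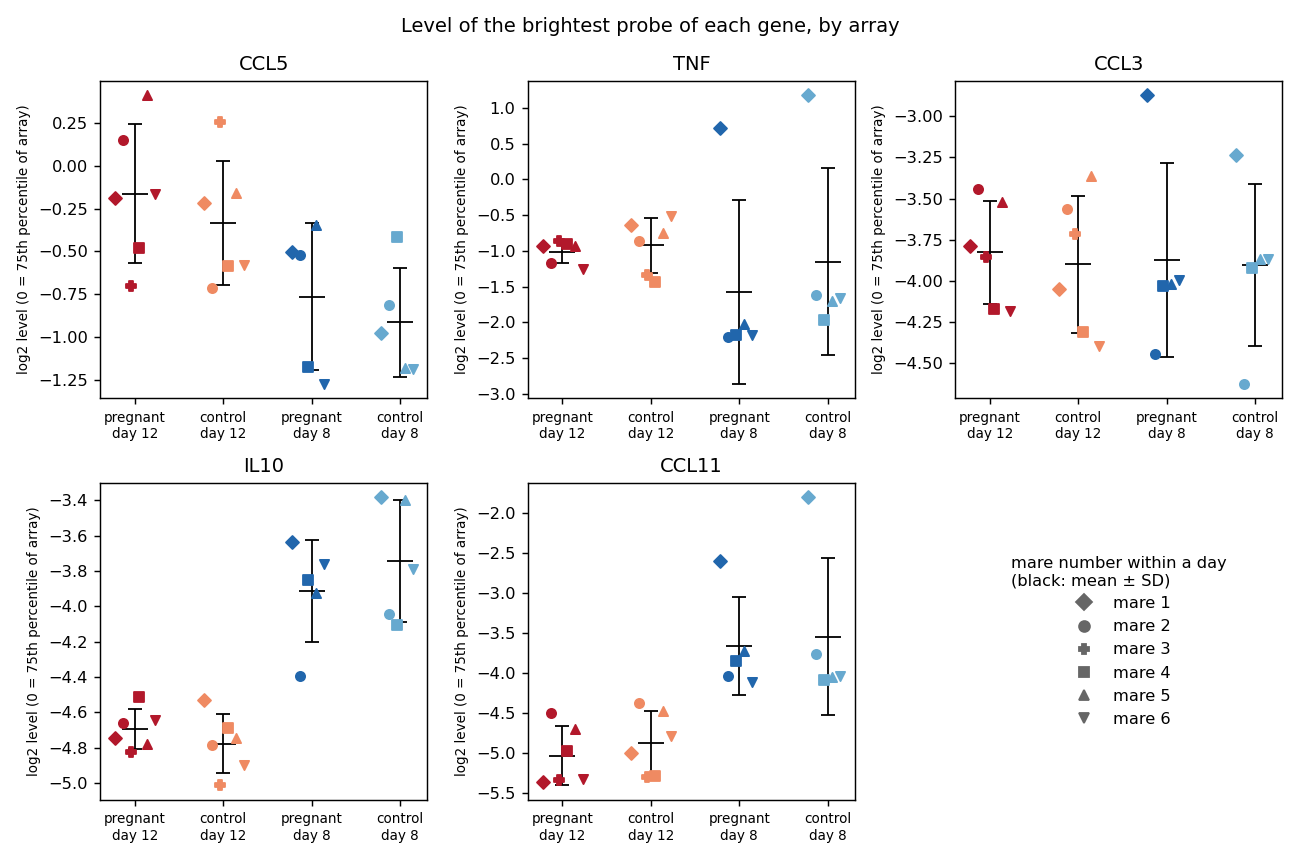
Level of the brightest probe of each gene (y axis, log2 units, 0 at the 75th percentile of the array) on every array by group, with 1 symbol per mare number within a day and the mean ± SD in black. IL10 and CCL11 lie lower in both day 12 groups than in both day 8 groups, and mare 1 of day 8 stands above the rest of day 8 for TNF and CCL11.

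The first question of the design was whether pregnancy altered these genes within a day, and it was tested inside each mare with limma across all probes and Benjamini-Hochberg adjustment at 0.05. At day 12, 0 of the 13 member probes passed, where 0.265% of all 38452 tested probes did. Also without adjustment 0 of the 13 had a p under 0.05, the lowest being 0.0632 for the CCL11 probe A_69_P000766. The estimates of the brightest probes were all small: CCL5 was 0.17 ± 0.23 log2 units higher in pregnant than in control samples (SE, 6 mares, 5 of them higher; adjusted p = 0.803). CCL11 was −0.16 ± 0.15 (lower in 5 of 6 mares; adjusted p = 0.700) and TNF −0.09 ± 0.15 (lower in 4 of 6; adjusted p = 0.850). CCL3, at 0.07 ± 0.09, and IL10, at 0.08 ± 0.10, were both higher in 4 of 6 mares. The 95% intervals ran from −0.34 to 0.68 for CCL5, −0.48 to 0.16 for CCL11, −0.42 to 0.24 for TNF, −0.13 to 0.28 for CCL3 and −0.15 to 0.31 for IL10, so changes of that size remained possible in either direction. The within-slide mean of the mares' CCL5 changes ranged from −0.46 to 0.86 over the 4 day 12 slides. The mare counts and intervals above are those of the brightest probes. Over all tested probes the estimates ran from 0.13 to 0.17 for CCL5, −0.39 to 0.16 for CCL11 and −0.05 to 0.08 for IL10. Depending on the probe, CCL5 was higher in 3 to 5 of 6 mares, CCL11 in 1 to 3 and IL10 in 2 to 4.

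At day 8, 0 of 13 member probes passed, and the share over all probes was 0%. TNF came closest, at −0.42 ± 0.16 log2 units (SE, 5 mares; 95% interval −0.78 to −0.06). Its p in limma was 0.0264 before adjustment and 0.832 after it. It was lower in the pregnant than in the control sample of every one of the 5 mares, by between 0.21 and 0.59 log2 units, and this included mare 1, whose TNF was high in both samples. A probe was lower in every day 8 mare for 4.23% of all tested probes. Without mare 1 the TNF change was −0.41 ± 0.19 (limma adjusted p = 0.706). On the 3 day 8 slides the mean TNF change was −0.52, −0.21 and −0.42. The other brightest probes had estimates of 0.15 ± 0.25 (CCL5), 0.03 ± 0.10 (CCL3), −0.12 ± 0.16 (CCL11) and −0.17 ± 0.11 (IL10), with adjusted p between 0.872 and 0.987. Over all tested probes the estimates ran from 0.15 to 0.22 for CCL5, −0.44 to 0.40 for CCL11 and −0.17 to 0.08 for IL10. The signs were not stable: without mare 1 CCL3 was −0.05 and CCL11 0.05, without mare 2 CCL3 was −0.0053, and without mare 5 CCL5 was −0.020.

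The effect of pregnancy at day 12 was then set against that at day 8 in the same limma fit. Of the 13 probes 0 passed, against 0.0104% of all probes, and 0 had a p under 0.05 without adjustment. The difference, day 12 minus day 8, was 0.33 ± 0.22 for TNF (95% interval −0.16 to 0.82; adjusted p = 0.613) and 0.25 ± 0.16 for IL10 (−0.09 to 0.59; adjusted p = 0.584). For CCL3, CCL5 and CCL11 it lay between −0.04 and 0.04. All these values are of the brightest probes. Over all tested probes the difference ran from −0.32 to 0.32 for CCL11, −0.12 to 0.25 for IL10 and −0.09 to 0.02 for CCL5. The SEs reached 0.54, for a CCL11 probe.

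**Figure D3:**
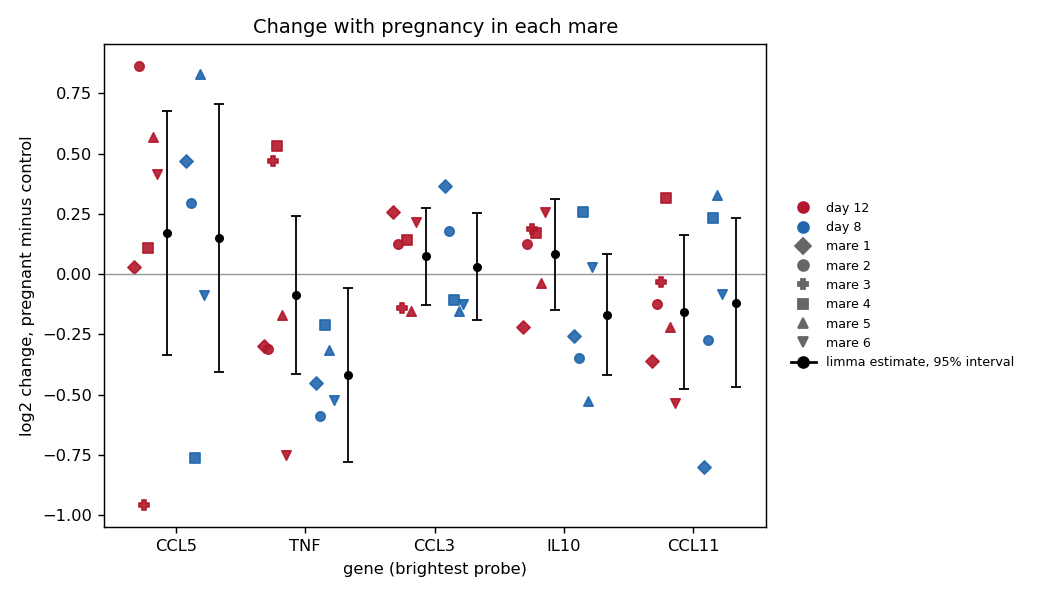
Pregnant minus control log2 difference of the brightest probe in each mare (symbols, red for day 12 and blue for day 8), with the limma estimate and its 95% interval in black. The interval of TNF at day 8 runs from −0.78 to −0.06, with all 5 mares below 0 and an adjusted p of 0.832, and the other 9 intervals span 0.

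Day 12 was next compared with day 8 within pregnant mares, where IL10 and CCL11 were lower at day 12. All 5 IL10 probes passed, with differences between −0.91 and −0.55 log2 units, and the brightest was lower by −0.78 ± 0.15 (SE, 6 against 5 arrays), a 1.72-fold lower level at day 12 (limma adjusted p = 0.00453). The brightest CCL11 probe was lower by −1.37 ± 0.28, or 2.58-fold (adjusted p = 0.00635), and the other 3 tested CCL11 probes, with differences between −1.09 and −0.56, did not pass. In all, 6 of 13 member probes passed, all of them lower, against 24.3% of all probes in either direction and 13.1% in the lower direction. The 5 IL10 probes read the same transcript on the same arrays, so they are not independent results and the count cannot be weighed against those shares. Of all probes that passed here 54.1% were lower, with 66.0% under uncapped normexp, 46.7% in the authors' deposited table and 49.2% with the mare number as a block. For 3 of 5 IL10 probes and 1 of 4 CCL11 probes the day 12 and day 8 values did not overlap, as for 8.28% of all probes in this direction. For CCL5 the difference was 0.60 ± 0.24 (adjusted p = 0.0881), for TNF 0.56 ± 0.47 (0.401) and for CCL3 0.05 ± 0.26 (0.913).

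These day differences depended on how the arrays were processed. When the median spot signal was background-corrected by normexp with an offset of 50, and the few most extreme local background values of each array were capped, IL10 was −0.48 (adjusted p = 0.125) and CCL11 −0.65 (0.0754) and 0 member probes passed. The spot signal, the background correction, the offset and the cap changed together there, so the part of each was not tested. In the authors' deposited table the values were −0.53 for IL10 (adjusted p = 0.695) and −0.93 for CCL11 (0.267), again with 0 probes past the threshold. When every array of that table was scaled to its 75th percentile and nothing else was changed, both genes passed the threshold.

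In control mares IL10 was lower at day 12 as well, and it was the only member past the threshold. The brightest IL10 probe was lower by −1.03 ± 0.17 log2 units, or 2.05-fold (SE, 6 against 5 arrays; adjusted p = 0.0101). With the fifth IL10 probe at −0.54 (adjusted p = 0.136), 4 of 5 IL10 probes passed, and these were 4 of the 13 member probes, against 7.11% of all probes in either direction and 4.62% in the lower one. Here too the IL10 probes read the same transcript and are not independent results. Of all probes that passed in controls 65.1% were lower, and 96.0% were in the authors' deposited table. The groups did not overlap for 3 of 5 IL10 probes and 1 of 4 CCL11 probes, as for 4.48% of all probes in this direction. CCL11 had nearly the same difference as in pregnant mares, −1.33 ± 0.40, but an adjusted p of 0.0639. For CCL5 it was 0.58 ± 0.21 (adjusted p = 0.112), for TNF 0.23 ± 0.50 (0.803) and for CCL3 0.00 ± 0.26 (0.995).

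The IL10 difference in controls was also sensitive to settings. With scan day as a random block it was −1.04 (adjusted p = 0.0948), with capped normexp −0.61 (0.121) and in the authors' deposited table −0.70 (0.915). The count of 4 member probes fell to 1 without control mare 1 of day 12, 2 without control mare 3 of day 12, and 1 without control mare 5 or 6 of day 8. The brightest IL10 probe passed in each of these fits.

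**Figure D4:**
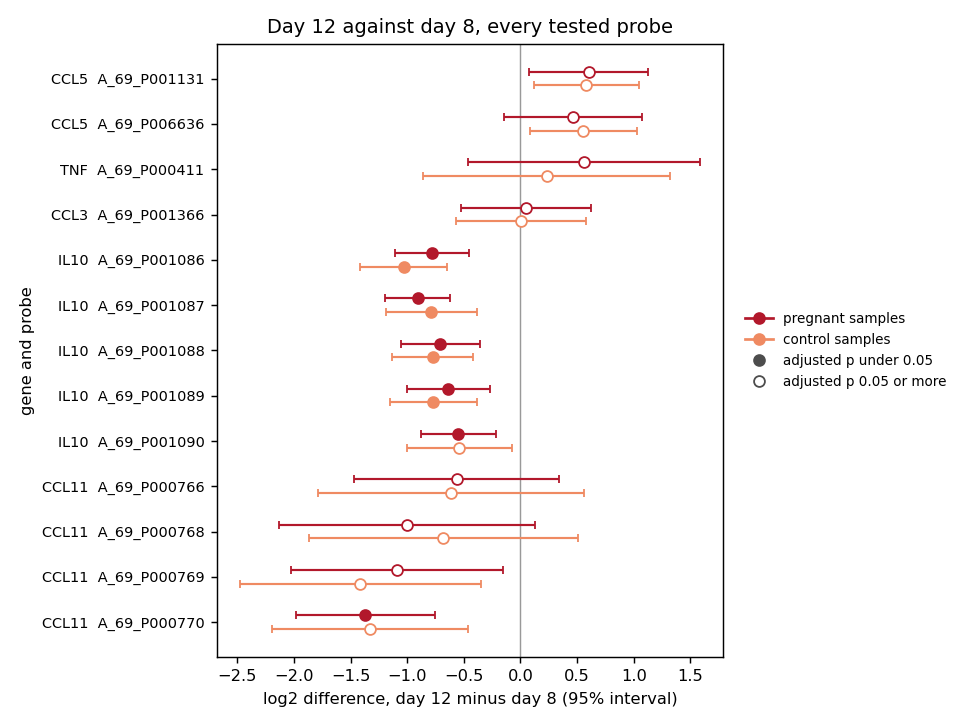
Day 12 minus day 8 difference in log2 units with its 95% interval for each of the 13 tested probes, in pregnant samples (dark red) and control samples (orange), filled where the limma adjusted p was under 0.05. The IL10 and CCL11 probes all lie below 0, filled for 5 IL10 probes and 1 CCL11 probe in pregnant samples and 4 IL10 probes in control samples.

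The size of the day differences in TNF and CCL11 turned on mare 1 of day 8. Leaving out her pregnant array, TNF in pregnant mares was 1.13 ± 0.12 log2 units higher at day 12 (limma adjusted p = 0.000532), against 0.56 with her. Leaving out her control array, TNF in control mares was 0.81 ± 0.21 higher (adjusted p = 0.0418), against 0.23 with her. CCL11 in pregnant mares was −1.10 ± 0.20 without her (adjusted p = 0.00396), against −1.37 with her, and in control mares −0.89 ± 0.21 (adjusted p = 0.0340), against −1.33. Without her array 27.7% of all probes passed in pregnant mares and 7.55% in control mares. Her arrays were singled out by these same values, and leaving them out also lowers the spread. The adjusted p of these fits therefore cannot serve as a test of a day difference. The remaining 4 mares of day 8 averaged −2.15 ± 0.09 for TNF in pregnant and −1.74 ± 0.16 in control samples (SD, n = 4).

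Her values were also high before any scaling for TNF, less so for CCL11 and not for CCL3 or IL10. The unscaled TNF intensity of mare 1 was 1042 pregnant and 1300 as control, and that of the other day 8 arrays lay between 230 and 392. For CCL11 it was 104 and 165, against 52.1 to 101 on the others. For CCL3 it was 86.4 and 61.1, inside the range of 48.4 to 94.5 of the other day 8 arrays, so that her high scaled CCL3 came with the lowest 75th percentiles of day 8, 633 and 577 against 853 to 1461, whose part in it was not tested. For IL10 it was 50.9 and 55.3, the lowest of the pregnant and of the control arrays of day 8. Her scaled IL10 levels, −3.64 and −3.38, were the highest of those groups. Mare 2 shared the slide and scan day of mare 1 and was not high for TNF. What set mare 1 apart was not tested.

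**Figure D5:**
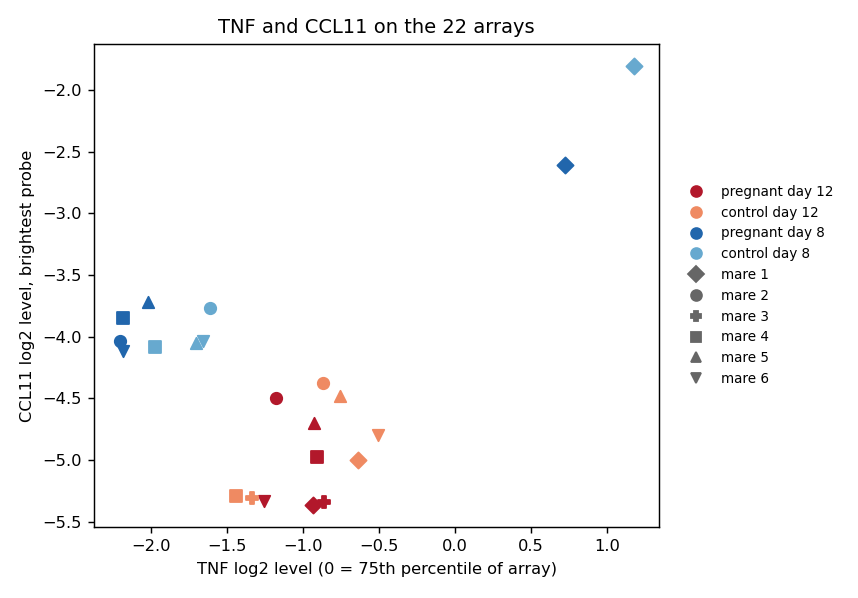
CCL11 level against TNF level, both in log2 units, on the 22 arrays, coloured by group with 1 symbol per mare number. Both day 8 arrays of mare 1 lie at the upper right, the other day 8 arrays have TNF below −1.6 and CCL11 near −4, and the day 12 arrays have higher TNF and lower CCL11.

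Among the members, TNF and CCL11 varied most alike once group means were removed. Their Pearson correlation over the 22 arrays was 0.872, but 0.410 over the 20 arrays without mare 1 of day 8, and that of TNF and CCL3 was 0.652 with her arrays and −0.034 without them. Those 2 arrays therefore carried much of the likeness. CCL5 ran apart from TNF (0.036) and opposite to IL10 (−0.356). Arrays of a mare share a slide, so these correlations describe the 22 arrays and carry no test.

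Of 567 named genes ranked by the same measure, those like CCL5 included CD2, a surface receptor of T and NK cells, at 0.853, and LAPTM5, a lysosomal protein of blood cells, at 0.700. Without mare 1 of day 8 these were 0.884 and 0.716. CD2 itself differed between days by 0.05 ± 0.25 in pregnant and −0.20 ± 0.21 in control mares (adjusted p = 0.906 and 0.565). The nearest genes to TNF were COL2A1, a cartilage collagen (0.937), TLX3, a homeobox factor (0.921), and TLR4, the receptor for bacterial endotoxin (0.903), and without mare 1 they fell to 0.599, 0.732 and 0.330. CCL11 was nearest to COL2A1 (0.954), HTR1B, a serotonin receptor (0.943), and DENND1C (0.924), which stayed at 0.812, 0.805 and 0.757 without her. For CCL3 the nearest were RSPO1, a Wnt activator (0.916), TLR9, a receptor for bacterial DNA (0.901), and CCNT1, a cyclin of transcription (0.880). IL10 was followed less closely, by ANAPC7 (0.791), WNT2 (0.677) and OR13P2 (0.654).

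In the wider set of cytokine genes 0 passed the test for a change with pregnancy, though several estimates at day 8 were large and imprecise. Of 32 other chemokines listed, 7 could be measured (CCL2, CCL8, CCL16, CXCL6, CXCL8, CXCL9 and CXCL10) and in limma 0 passed at day 12 or day 8, with 0 at a p under 0.05 without adjustment. Their median change with pregnancy was 0.06 log2 units at day 12, with 5 of 7 higher, and −0.42 at day 8, with 1 of 7 higher, beside −0.02 and −0.01 over all probes. At day 8 their estimates ran from −1.48 ± 0.78 for CXCL8 (adjusted p = 0.848), the neutrophil attractant, well above background on 9 arrays, to 0.02 ± 0.36 for CCL8. CXCL9 had the smallest p of them at day 8, at −0.35 ± 0.17 (adjusted p = 0.832). Of 28 other cytokines, 17 could be measured and 12 tested, again with 0 past the threshold at either day. Their estimates ran from −0.25 ± 0.45 (IL17A) to 0.74 ± 0.59 (IL1A) at day 12. At day 8 they ran from −0.94 ± 0.49 (IL17A) to 0.35 ± 1.17 (IL6). IL1A, IL17A and IL6 were well above background on only 5, 7 and 13 arrays. CXCL8, CCL8, IL17A, IL1A and IL6 are named as the ends of these ranges, after their values were seen. Without adjustment 2 had a p under 0.05 at day 12 and 0 at day 8, the 2 being TGFB1 (0.31 ± 0.13, adjusted p = 0.343) and IL23A (0.55 ± 0.24, 0.372).

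Between the days, 1 of the 7 chemokines and 2 of the 12 cytokines passed in pregnant mares, where 24.3% of all probes did, and 0 of 7 and 1 of 12 in control mares, where 7.11% did. These shares are no higher than those over all probes, or rest on 1 gene. In pregnant mares CXCL10, a chemokine induced by interferon, was 0.59 ± 0.20 higher at day 12 (adjusted p = 0.0475), and the T cell product IFNG was 0.91 ± 0.20 higher (0.00792), though IFNG was well above background on only 11 arrays. The chemokine receptor CCR2 had a difference of 0.26 ± 0.28 (0.513). IL12A, a subunit of interleukin 12, was lower at day 12 in pregnant (−0.76 ± 0.21, adjusted p = 0.0239) and control mares (−0.79 ± 0.19, 0.0352).

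Of the partners of TNF and IL10, few were on the list of named genes. CD40, a TNF receptor family member, TNFAIP6, a gene induced by TNF, and SOCS3, a feedback inhibitor in cytokine signalling, were the 3 measured of 30 listed for TNF and 11 for IL10. In limma 0 of the 3 passed in any comparison, and 0 had a p under 0.05 without adjustment. TNFAIP6 differed between day 12 and day 8 by −0.54 ± 0.32 in pregnant mares and −0.67 ± 0.52 in control mares (adjusted p = 0.243 and 0.440).

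Markers of the cells that make or answer these signals were sparsely covered, with 4 of 21 for T and NK lymphocytes, 4 of 12 for macrophages and dendritic cells, 2 of 15 for granulocytes and mast cells and 0 of 5 for B cells. In whole tissue a lower level can come from fewer cells of a type or from less RNA per cell, which cannot be told apart. The summed linear level of the 4 macrophage and dendritic markers, in multiples of the 75th percentile, ran from 9.42 to 12.3 in pregnant and 6.94 to 12.0 in control mares at day 12, and from 9.13 to 12.2 and 7.94 to 12.1 at day 8. The 4 lymphocyte markers summed to between 2.22 and 19.9 in pregnant and 4.37 and 18.1 in control mares at day 12, and to between 2.92 and 24.8 and 3.88 and 13.4 at day 8. LAPTM5 made up 66.4% to 87.5% of the macrophage sum and GZMB, a granule protease of killer cells, 68.0% to 96.4% of the lymphocyte sum, so each sum follows mainly its brightest probe. Both sums overlapped between all groups, which says little of the dimmer markers, and the part of cell makeup in the differences of IL10 and CCL11 was not tested.

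Of the 15 cell markers tested, 3 were higher and 1 was lower at day 12 in pregnant mares. That is 26.7% of them, close to the 24.3% of all probes that passed. The monocyte receptor CD14 was 1.01 ± 0.15 higher at day 12 (adjusted p = 0.00183), PECAM1 of endothelium 0.92 ± 0.19 higher (0.00589), TAGLN of smooth muscle 0.84 ± 0.28 higher (0.0462) and LUM of stroma −0.63 ± 0.20 (0.0418). The other 3 macrophage and dendritic markers ran the other way from CD14 and did not pass, at −0.61 ± 0.29 for ITGAX (adjusted p = 0.142), −0.23 for CD68 and −0.17 for LAPTM5. Mast cell tryptase, TPSB2, differed by −0.15 ± 0.72 (0.896). In control mares 0 of the 15 passed, the nearest being ITGAX at −0.83 ± 0.27 (adjusted p = 0.0818), then LUM and PECAM1 (0.110 for both).

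The 3 chemokine genes lie on horse chromosome 11 in the RefSeq annotation of the TB-T2T assembly, with 4 protein-coding genes between CCL3 and CCL5, CCL16 among them, and 24 between CCL5 and CCL11. Their day 12 minus day 8 differences were 0.05 for CCL3, 0.60 for CCL5 and −1.37 for CCL11 in pregnant mares and 0.00, 0.58 and −1.33 in control mares.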

How the data were processed

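Endometrial RNA of 22 samples was measured on 1-colour arrays. The authors deposited scanner output with spot intensities on a linear scale, background-subtracted and detrended per array per the file headers, made with Agilent Feature Extraction 10.5.1.1 (day 12) or 10.7.3.1 (day 8); the submitters' processing notes name 10.5.1.1. The authors also deposited a table of processed values, read as log2 because each column rose with log2 scanner intensity (correlation 0.986 to 0.997); how it was made is not stated there, and its column medians ranged from 7.47 to 8.83.

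Here, each log2 intensity minus the array's 75th percentile was used. Non-uniform outlier spots (3 to 152 per array) were dropped and spots of a probe averaged. Of 43603 probes, 38452 well above background on at least 5 arrays were tested with limma 3.58.1 in R 4.3.3. A gene was carried by its brightest probe, and probes were named through accessions in the RefSeq table: 1394 probes matched 1 symbol, 1 several and 42208 none. Pregnancy effects used mare within day as a block over all 22 arrays, as the series' design text says each mare gave both samples. Day comparisons used the 11 pregnant or 11 control arrays without covariates. Samples with the same mare number within a day deviated together (correlation 0.288 to 0.744, the mare's own partner best in 11 of 11), whereas across days the correlation ran from −0.301 to 0.324, and the labels do not say that a number is the same animal on both days. Biopsies are separate samples, and precision is limited by the number of arrays.

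All members are named, with for each the 3 genes of most similar pattern, and of other lists the 2 genes of smallest p in a comparison. Some genes that these rules pick are not reported here. Members and lists were chosen with earlier results of these data known. Alternatives were normexp, quantile normalization, the authors' table, other filters, priors and blocks, and leaving out each mare. Normexp had been planned on the mean spot signal and used the median spot signal instead. The scripts were tested on simulated data.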

Additional observations from a re-analysis of the deposited data

Results flagged for a closer look

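Mare 1 of day 8 was set apart from the other mares of her groups in 5 of the 30 sets of values examined, the gap to the nearest mare being large against the whole range. Chance gives such a gap in about 1 of 20 sets of independent, normally distributed values. The 30 sets reuse the same arrays and the 5 gaps come from the 2 arrays of mare 1, so they cannot be set against that share. Her TNF level was 0.72 pregnant (next −2.02) and 1.17 as control (next −1.61). Her CCL11 level was −2.60 pregnant (next −3.72) and −1.80 as control (next −3.76), and her CCL3 level was −2.87 pregnant (next −3.99). Her arrays correlated with those of their group at a mean of 0.970 and 0.968, against 0.976 to 0.981 for the other day 8 arrays. The day 12 arrays ranged from 0.965 to 0.980, so her arrays were not outside the range of the series by this measure.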

How the results depend on the processing

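None of the member probes passed for either pregnancy effect or their difference under any alternative run. The IL10 and CCL11 day differences kept their sign except under uncapped normexp in pregnant mares. Capped normexp and the scaled authors' table were chosen after seeing the data. In uncapped normexp the array of pregnant mare 1 of day 12 holds a local background of 395860, against 98.5 at most elsewhere, and the median of all probes shifted by 0.34 log2 units for pregnancy at day 12, 0.38 for the difference and 0.39 between days in pregnant mares. It gave 0.60 for CCL11 and 0.11 for TNF in pregnancy at day 12, 0.65 for CCL11 in the difference between days, 0.028 for CCL11 and 0.16 for IL10 between days in pregnant mares, −0.057 for CCL3 and −0.61 for IL10 in controls, and 0 member probes in both day comparisons.

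Capped normexp gave −0.057 for CCL3 and −0.61 for IL10 in controls, −0.030 for CCL3, −0.65 for CCL11 and −0.48 for IL10 in pregnant mares, and 0 member probes in both. The authors' table gave 0.0065 for CCL11 in the difference between the pregnancy effects, −0.70 for IL10 in controls, −0.93 for CCL11 and −0.53 for IL10 in pregnant mares, and 0 member probes in both day comparisons. Scaled, it gave 0.0038 for CCL11 in that difference, −0.028 for CCL3 in controls and 1 member probe in controls. Quantile normalization gave −0.062 for CCL3 in that difference, −0.052 for CCL3 in pregnant mares and −1.31 for CCL11 in controls (adjusted p = 0.0417). CCL11 in controls, at −1.33, also passed with probes well above background on all arrays, a trended robust prior, or all 22 arrays in one fit of the 4 groups (adjusted p = 0.0433, 0.0481 and 0.0171). With random blocks in controls, scan day gave −1.04 for IL10 and 0 member probes, and slide 1 member probe.

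The mare number as a replicate block across days, which the labels do not support as a pairing, gave −0.033 for CCL3 and −0.99 for IL10 (adjusted p = 0.0985) with 0 member probes in controls, and 0.71 for CCL5 (0.0383) in pregnant mares. Only 1 of 5 control and 2 of 5 pregnant samples correlated best with their own number. Removing the mare block within days changed no call among the member probes, whereas over all probes 41 passed for pregnancy at day 12 without it, against 102 with it, and 0 against 4 for the difference.

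Leaving out each replicate in turn, the TNF change with pregnancy at day 12 ran from −0.21 to 0.045. At day 8 CCL3 ran from −0.052 to 0.078, CCL5 from −0.020 to 0.38 and CCL11 from −0.23 to 0.052. The difference between the effects ran from −0.0044 to 0.13 for CCL3, −0.21 to 0.25 for CCL5 and −0.21 to 0.072 for CCL11. Between days in controls, CCL3 ran from −0.18 to 0.17, CCL11 from −1.46 to −0.89, TNF from 0.027 to 0.81 and the member count from 1 to 6. In pregnant mares CCL3 ran from −0.098 to 0.30 and TNF from 0.40 to 1.13. Over all alternatives the share of all probes past the threshold ranged from 1.01% to 29.5% in pregnant mares, 0.0806% to 14.4% in controls and 0.0234% to 2.54% for pregnancy at day 12. The cause of these changes was not tested.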

Other observations

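The 7 other chemokines measured all had a larger estimate of the pregnancy effect at day 12 than at day 8. Their median difference was 0.55 log2 units, beside 0.003 over all probes. In limma's test of that difference 0 of the 7 passed (1 had a p under 0.05 without adjustment). It was not particular to chemokines: 10 of the 12 other cytokines tested also had a larger estimate at day 12, with a median difference of 0.43. CXCL6 and CXCL8 were well above background on only 10 and 9 arrays. All these genes were measured in the same mares, so they are not independent. For CXCL9 the estimates were 0.09 ± 0.15 log2 units at day 12 and −0.35 ± 0.17 at day 8 (SE, adjusted p = 0.842 and 0.832). For CXCL10 they were 0.39 ± 0.27 and −0.57 ± 0.30 (adjusted p = 0.599 and 0.848).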
